A study of Saccharomyces cerevisiae with 21 samples.

Results

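The 33 genes described here encode proteins that work at the DNA replication fork of the budding yeast Saccharomyces cerevisiae, in the checkpoint that guards it and in the repair of its errors. They were taken by name from a fixed list, all 33 were found among the 7126 loci of the deposited table, and all 33 passed the minimum mean of 1 FPKM, a read measure corrected for the length of a transcript and for sequencing depth. The list held the 3 genes of the single-strand binding complex RPA and the 5 of the clamp loader RFC, with the alternative loader genes CTF18 and ELG1. It held the 4 GINS genes, 6 genes of initiation, DPB3 and DPB4 of polymerase epsilon, 5 genes of fork protection and checkpoint signalling, 3 of Okazaki fragment maturation, the mismatch repair genes MSH6 and PMS1, and the recombination gene RAD54.

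RNA of 1 culture was sequenced in 21 libraries, 1 every 10 min from 0 to 200 min, with no replicates. The strain background was BF264-15D, of mating type MATa, and carried bar1::hphMX4 and arg4. All 6 B-type cyclin genes were disrupted, through clb1::URA3 and clb2::LEU2, clb3::TRP1 and clb4::HIS2, and clb5::ARG4 and clb6::ADE1, and PGAL1-CLB1::LEU2 supplied CLB1 from a galactose-driven promoter. The culture grew in YEPGalactose at 30 °C and was held in G1 by alpha-factor, the mating pheromone, at 30 ng/ml over 160 min. It was then released into YEPDextrose, which also withdrew the galactose that drives the added CLB1 copy. Effects of losing the pheromone, of changing the sugar and of withdrawing the drive on that CLB1 copy cannot be told apart. Every library shares this genotype, and no control strain was analysed here.

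In yeast, genes of DNA replication are switched on late in G1 by the transcription factor MBF (Mbp1 with Swi6), which binds the sequence ACGCGT, and the related factor SBF binds CGCGAAA or CACGAAA. The helicase that opens the fork consists of the MCM ring, Cdc45 and GINS. Its assembly needs Sld3, Sld2 and Dpb11 together with the Cdc7 kinase and the kinase bound to B-type cyclins, the class of proteins these cells were built to lack. RPA then coats the exposed strands, RFC loads the sliding clamp, and Rad53 is activated when forks stall.

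Of the disrupted genes, CLB4 was listed at 0 in every library and CLB6 ran from 1.84 to 160 FPKM. CLB5 ran from 22.2 to 80.4, CLB2 from 38.1 to 93.3, CLB3 from 20.1 to 32.2 and CLB1 from 90.4 to 293 FPKM. Reads from the remnant of a disrupted gene, from its flanks and from the added CLB1 copy cannot be separated in these sums. The MATa markers MFA1, MFA2 and STE2 were at 157 FPKM or more in each library, while the MAT alpha markers MF(ALPHA)1, MF(ALPHA)2 and STE3 reached at most 1.14, 20.6 and 11.9 FPKM. FUS1 and AGA1, markers of pheromone arrest, were at 333 and 2575 FPKM at 0 min and had medians of 56.5 and 156 FPKM over the course. All loci of a library together summed to between 1212671 and 1911174 FPKM, of which the top 10 held 10.5% to 19.2%, and sequencing depth is unknown. In bulk RNA a smaller share of cells expressing a gene and less RNA per cell cannot be told apart.

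The promoters of these genes are shown first, because the motif bound by MBF was frequent among them. ACGCGT stood on either strand between 250 bases before and 50 bases after the start of the coding sequence in 16 of the 33 genes (48.5%), against 184 of 6001 protein-coding genes with such a window in the RefSeq R64 genome (3.07%). All 16 also had it in the 250 bases before the start alone. The motif occurred 2 times in RFA1, RFA2, CDC45, MRC1, TOF1, RAD27 and MSH6, and once in the other 9 (RFC4, ELG1, PSF3, SLD2, DBF4, CSM3, CTF4, CDC9 and PMS1). CGCGAAA was found in 6 of the 33 (18.2%; 3.60% of all windows) and CACGAAA in 2 (6.06%; 4.20% of all windows), and 11 of the 33 held none of the 3 motifs. A match describes letters in a window and is no measured binding site.

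The windows of 5 of these genes follow, 5′ to 3′ on the gene's strand in build R64, with ACGCGT and CGCGAAA, read on either strand, in capitals. TOF1, MSH6, RAD27 and RFA2 each carry a pair of ACGCGT, and PMS1 carries ACGCGT beside CGCGAAA.

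TOF1 (chrXIV:122633-122932, plus strand): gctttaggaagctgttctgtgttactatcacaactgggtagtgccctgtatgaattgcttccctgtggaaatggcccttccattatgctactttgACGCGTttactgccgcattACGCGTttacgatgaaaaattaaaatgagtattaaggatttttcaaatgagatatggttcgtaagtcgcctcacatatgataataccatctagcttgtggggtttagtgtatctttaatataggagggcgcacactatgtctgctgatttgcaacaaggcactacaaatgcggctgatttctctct

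MSH6 (chrIV:643788-644087, minus strand): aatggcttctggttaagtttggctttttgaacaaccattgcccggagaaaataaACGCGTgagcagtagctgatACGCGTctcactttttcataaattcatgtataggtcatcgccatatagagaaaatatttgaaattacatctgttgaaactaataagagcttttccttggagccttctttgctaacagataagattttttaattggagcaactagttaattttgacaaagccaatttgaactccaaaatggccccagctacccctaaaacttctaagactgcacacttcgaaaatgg

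RAD27 (chrXI:225826-226125, minus strand): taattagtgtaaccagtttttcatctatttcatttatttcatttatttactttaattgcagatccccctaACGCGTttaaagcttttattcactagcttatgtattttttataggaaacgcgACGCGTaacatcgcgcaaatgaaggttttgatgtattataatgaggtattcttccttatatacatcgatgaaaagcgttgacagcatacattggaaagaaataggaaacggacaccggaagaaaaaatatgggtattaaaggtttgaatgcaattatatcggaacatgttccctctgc

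RFA2 (chrXIV:48037-48336, plus strand): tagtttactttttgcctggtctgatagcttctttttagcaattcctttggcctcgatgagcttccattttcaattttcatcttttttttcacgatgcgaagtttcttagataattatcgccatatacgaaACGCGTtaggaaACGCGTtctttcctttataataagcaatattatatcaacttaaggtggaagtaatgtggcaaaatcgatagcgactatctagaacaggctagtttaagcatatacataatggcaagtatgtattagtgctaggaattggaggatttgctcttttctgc

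PMS1 (chrXIV:473141-473440, plus strand): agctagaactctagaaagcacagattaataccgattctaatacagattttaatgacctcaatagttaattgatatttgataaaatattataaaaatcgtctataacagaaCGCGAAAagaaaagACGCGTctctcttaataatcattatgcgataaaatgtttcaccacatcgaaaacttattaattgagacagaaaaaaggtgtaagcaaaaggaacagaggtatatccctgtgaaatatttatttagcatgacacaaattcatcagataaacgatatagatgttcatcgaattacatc

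Between the 2 copies of ACGCGT and the start lay 149 and 130 bases in TOF1, 190 and 170 in MSH6, 174 and 122 in RAD27, and 114 and 102 in RFA2. In PMS1 the ACGCGT ended 120 bases and the CGCGAAA 133 bases before the start. ACGCGT reads the same on both strands and was counted once per place, and in none of the 33 windows did a motif overlap another.

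Nearly all of the genes had their early maximum in the same library. Up to 100 min the highest value was at 20 min for 28 of 33 genes and at 30 min for RFA3 and RFC1, while DPB4 was highest at 60, RFC2 at 90 and DNA2 at 100 min. The same count over all loci was not made. A maximum at 20 min could also be slight, as for RFC3 with 58.3 FPKM at 20 min and 57.0 at 80 min. The 33 genes together summed to 952 FPKM at 0 min, 2968 at 20 min, 1391 at 80 min and 1885 FPKM at 200 min, which was 0.0498%, 0.190%, 0.0887% and 0.132% of the library sums. Over the whole course 20 of the 33 changed (limma, spline over 21 libraries, adjusted p under 0.05, with fitted high and low at least 1 apart in log2(FPKM + 1)), where 44.8% of 6198 loci did. A spline of 4 degrees of freedom instead of 6 left 3 of them (RFA2, RFA3 and PSF1), where 33.4% of loci were called, so the share of the 33 genes was above that of all loci with 6 degrees of freedom and below it with 4. Without the 30 min library 12 were called, against 39.4% of loci. Changed genes made up 3 of 3 in RPA, 2 of 5 in RFC, 2 of 2 alternative loaders, 2 of 4 in GINS, 3 of 6 in initiation, 0 of 2 in polymerase epsilon, 4 of 5 in fork protection, 2 of 3 in Okazaki maturation, 2 of 2 in mismatch repair and 0 of 1 in recombination.

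**Figure D1:**
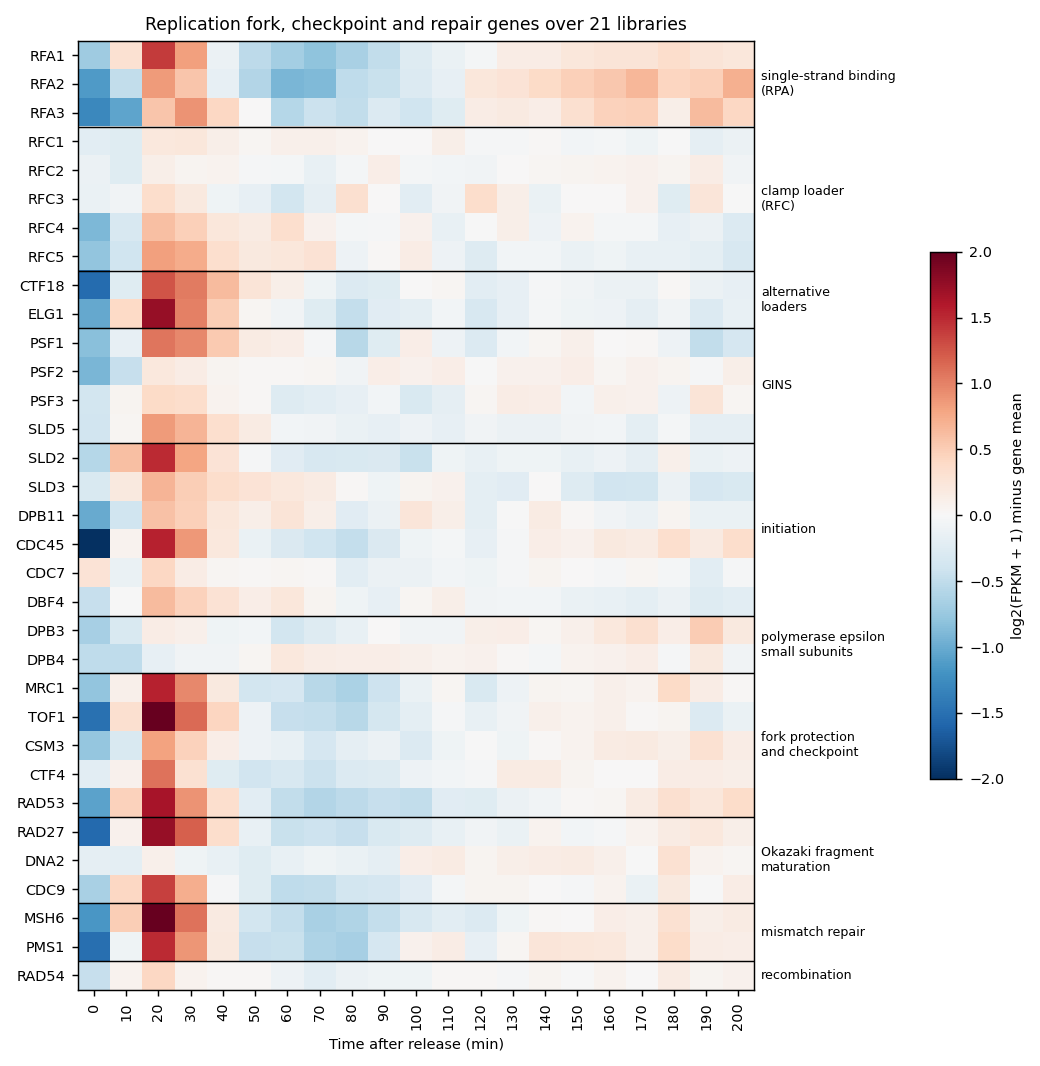
Level of each of the 33 genes (rows, grouped by role) in each of the 21 libraries (columns, min after release), as log2(FPKM + 1) minus the gene's mean over the course. Red is above and blue below that mean; the 20 min column holds the early maximum of 28 genes, and all 3 RPA rows are above their means from 130 min on.

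The climb out of the arrest was compared without a test, since there is 1 library at 0 min. In the mean of 20, 30 and 40 min, 21 of 33 genes were at least 2-fold above 0 min on the log2(FPKM + 1) scale, against 11% of 6088 loci, and none was 2-fold below it (19.2% of loci). The median difference was 1.34 for the 33 genes and -0.10 for all loci. CDC45, the helicase cofactor, was at 6.60 FPKM at 0 min, 36.9 at 10 min and 104 at 20 min. TOF1, whose product travels with the helicase and steadies the fork, went from 3.24 to 48.7 FPKM at 20 min and RAD27 from 16.4 to 169 FPKM. On the log2(FPKM + 1) scale, the mean of 20, 30 and 40 min exceeded 0 min by 3.13 for CDC45, the largest difference of all 33. The same difference was 2.71 for TOF1 and 2.65 for RAD27. CDC7 stood at 27.4 FPKM at 0 min and 30.3 at 20 min, while DBF4, its activator, stood at 21.5 and 46.7 FPKM. With all of 20, 30 and 40 min averaged, CDC7 differed from 0 min by -0.07 and DBF4 by 0.91.

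To measure how each gene came down again, the libraries of 20, 30 and 40 min (the pulse) were set against those of 60, 70, 80 and 90 min (the trough), and both against 170 to 200 min (late). The 3 windows were fitted together in limma over 6197 loci, and a gene was called at an adjusted p under 0.05 with a difference of at least 1 on the log2(FPKM + 1) scale. Libraries of 1 window are consecutive samples of 1 culture and not replicates, so these p-values are too small, and the 3 comparisons share libraries.

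The pulse was higher than the trough in 15 of 33 genes, where 2.02% of loci were called in that direction. It was lower in 0 of 33, against 2.84% of loci. At an unadjusted p under 0.05 in limma it was lower in 1 gene, against 25.4% of loci. Every pulse library lay above every trough library in 25 of the 33, against 19.4% of loci. The median difference was 0.70 for the 33 genes and -0.02 for all loci. By role the called genes were all 3 of RPA, both alternative loaders, both mismatch repair genes, MRC1, TOF1 and RAD53 of fork protection, RAD27 and CDC9 of Okazaki maturation, CDC45 and SLD2 of initiation and PSF1 of GINS. None of the 5 RFC genes nor DPB3, DPB4 or RAD54 was among them. The 20 min library carried much of this: without it 9 genes were called, and RFA2, CTF18, PSF1, SLD2, CDC45 and CDC9 fell under the minimum difference, with values of 0.78 to 0.95.

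**Figure D2:**
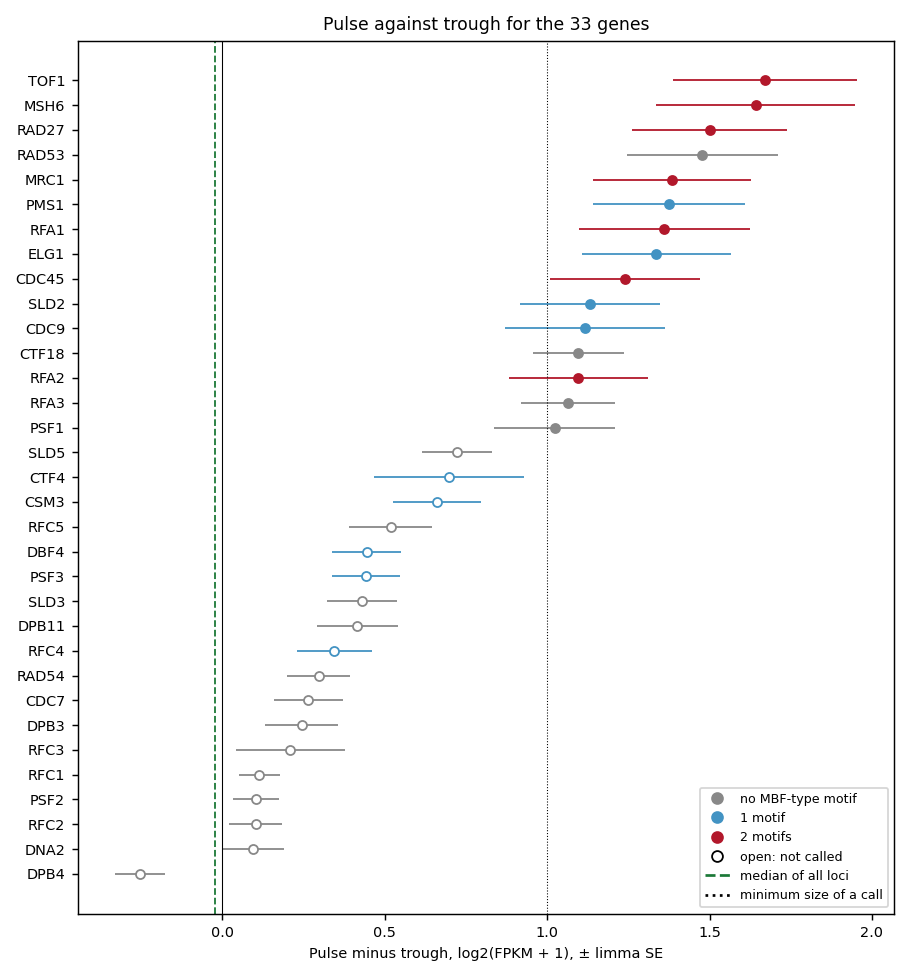
Pulse minus trough on the log2(FPKM + 1) scale for each gene (points, with the limma standard error as bars), ordered by size and coloured by the number of MBF-type motifs in the promoter window. Filled points are called; the 7 genes with 2 motifs lie between 1.10 and 1.67, and DPB4 is the only gene below 0.

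Genes with ACGCGT in the promoter window came down further than those without, as a description of these libraries. The 16 genes with it had a median difference of 1.19 (0.34 to 1.67) with 11 called, and the 17 without had a median of 0.30 (-0.25 to 1.48) with 4 called. All 7 genes with 2 copies were called, as were 4 of the 9 with 1. RAD53, at 1.48, CTF18, RFA3 and PSF1 were called with no ACGCGT in the window, and PSF1 alone of these held CGCGAAA. Outside the list, 164 tested loci had the motif and 19.5% of them were called higher in the pulse, against 1.14% of the 5425 without it, and of 14 other loci with 2 or more copies 9 were called.

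RPA, whose 3 subunits coat single-stranded DNA, had the highest FPKM of the complexes here and was high both early and late. RFA3, the smallest subunit, stood at 532, 678 and 480 FPKM in the 3 pulse libraries, at 242, 270, 257 and 298 in the trough and at 506, 392, 561 and 482 late. RFA2 stood at 276, 224 and 136 FPKM in the pulse, at 80.4, 82.6, 108 and 113 in the trough and at 242, 205, 212 and 251 late. RFA1, the large subunit, stood at 119, 78.8 and 41.1 FPKM, then at 27.3, 24.95, 28.0 and 31.1, and late at 53.5, 57.2, 53.1 and 52.1. In all 3 genes the trough libraries lay below every pulse library (19.4% of loci) and every late library (22.5% of loci).

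The pulse exceeded the trough by 1.36 ± 0.26 (limma SE) for RFA1, 1.10 ± 0.21 for RFA2 and 1.06 ± 0.14 for RFA3 (adjusted p = 0.00368, 0.00379 and 0.000887). The late window exceeded the trough by 1.25 ± 0.20 for RFA2 (adjusted p = 0.000815), the single call among the 33 genes, and by 0.93 for RFA1 (adjusted p = 0.0111) and 0.85 for RFA3 (adjusted p = 0.000772), both under the minimum. RFA2 reached a late level of 82.4% and RFA3 of 91.3% of its 20 min value, and RFA1 one of 45.3%. Late against pulse the 3 differed by -0.43 (RFA1), 0.16 (RFA2) and -0.21 (RFA3), none called (limma, adjusted p = 0.181, 0.551 and 0.224), and differences between the 3 genes were not tested. RFA3 made up 51.7% (10 min) to 73.3% (50 min) of the summed FPKM of the complex and RFA1 6.19% (50 min) to 16.2% (10 min). Without the 30 min library RFA3 did not reach the minimum against the trough (0.92).

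**Figure D3:**
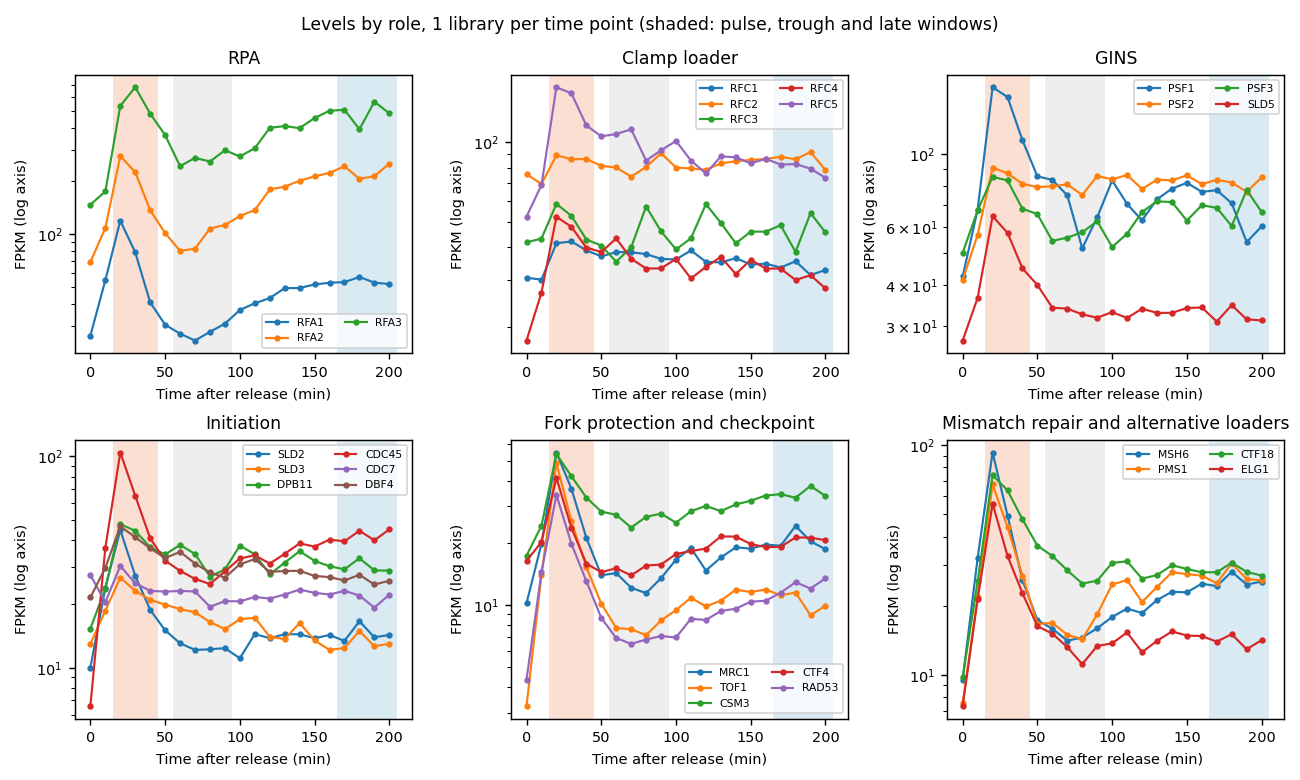
FPKM (log axis) over time for 6 of the role groups, with points for single libraries and shading for the pulse, trough and late windows. RPA genes have a low at 60 or 70 min and stand higher in the late window, RFC5 and PSF1 decline slowly after 20 min, and MSH6, PMS1, TOF1 and RAD53 come down steeply.

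RFC, the pentamer that opens the sliding clamp and places it on DNA, gave no call in any of the 3 comparisons of windows. Pulse against trough, 2 of 5 were higher at an unadjusted p under 0.05 in limma, against 21.99% of loci. RFC2 was between 69.4 and 91.7 FPKM in all 21 libraries (median 83.0), at 89.2, 86.0 and 86.3 in the pulse and 80.1, 74.0, 80.4 and 90.7 in the trough. RFC5 was the only subunit above 100 FPKM, at 161, 153 and 116 FPKM in the pulse, 107, 112, 85.1 and 93.1 in the trough and 82.2, 82.6, 79.3 and 73.2 late. Its pulse libraries lay above its trough libraries and these above its late ones, with a difference of 0.52 ± 0.13 between the first pair (limma, adjusted p = 0.0102) that did not reach the minimum. RFC1, the large subunit, ranged from 30.2 to 42.0 FPKM and RFC3 from 35.3 to 58.3, and RFC4 from 17.7 at 0 min to 52.1 at 20 min. RFC5 was at 52.2 FPKM at 0 min, which is outside the windows. RFC4 and RFC5 were the RFC genes changed over the whole course, with fitted ranges of 1.29 and 1.39. Without the 0 min library these ranges were 0.68 and 0.88. RFC5 made up 24.0% (0 min) to 40.1% (30 min) of the summed level of the complex, and RFC1 10.3% to 14.1%. RFC1, RFC4 and RFC5 were below every trough library in every late library, as was SLD3, which made 4 of 33 genes against 19% of loci, and for RFC4 the gap was between 33.20 and 33.21 FPKM.

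Both alternative loader genes were called higher in the pulse. CTF18, the large subunit of a loader that works in sister-chromatid cohesion, stood at 74.1, 63.5 and 47.5 FPKM in the pulse, 32.9, 28.5, 24.98 and 25.7 in the trough and 28.0, 30.8, 28.1 and 27.1 late. ELG1, whose complex takes the clamp off DNA, stood at 55.6, 33.0 and 22.7 FPKM, then 15.1, 13.2, 11.1 and 13.4, and late at 13.96, 15.0, 12.9 and 14.2. For both, every pulse library lay above every trough library (19.4% of loci), while trough and late overlapped. The pulse exceeded the trough by 1.10 ± 0.14 for CTF18 and 1.34 ± 0.23 for ELG1 (limma, adjusted p = 0.000788 and 0.00231), and the late window was lower than the pulse by -1.07 and -1.25 (adjusted p = 0.000117 and 0.000865). The late window differed from the trough by 0.03 and 0.09 (adjusted p = 0.879 and 0.774).

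GINS, the complex of 4 subunits that joins Cdc45 and the MCM ring, had 1 called gene. PSF1 stood at 160, 150 and 110 FPKM in the pulse, 83.6, 74.9, 51.7 and 64.3 in the trough and 77.7, 70.9, 54.0 and 60.2 late. PSF2 stood at 91.0, 87.5 and 81.3 FPKM, then 79.9, 81.0, 75.1 and 85.9, and late at 83.6, 82.0, 76.9 and 85.0. All 11 of these PSF2 values lay between 75.1 and 91.0 FPKM and the windows overlapped, whereas the pulse values of PSF1 stood clear of the rest. Outside the windows PSF2 was lower, at 41.4 FPKM at 0 min. It was among the genes changed over the whole course, with a fitted range of 1.04 that fell to 0.40 without the 0 min library. The pulse exceeded the trough by 1.02 ± 0.19 for PSF1 (limma, adjusted p = 0.00285) and by 0.10 ± 0.07 for PSF2 (adjusted p = 0.267), with SLD5 at 0.72 and PSF3 at 0.44 under the minimum. The PSF1 call sat at the minimum and ended on leaving out any 1 of 20, 30, 80 and 90 min, with 0.90 as the lowest value. PSF1 made up 39.9% of the complex at 20 min and 22.5% at 190 min, and SLD5 11.8% to 16.8%.

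Among initiation genes, CDC45 and SLD2 were called and the other 4 were not. CDC45 stood at 104, 65.1 and 41.0 FPKM in the pulse, 28.7, 26.3, 24.9 and 28.5 in the trough and 39.6, 44.5, 40.1 and 45.1 late. Its trough libraries lay below every pulse library (19.4% of loci) and every late library (22.5% of loci). The differences were 1.24 ± 0.23 (limma, adjusted p = 0.00316) and 0.62 ± 0.21 (adjusted p = 0.0377, under the minimum). SLD2, a substrate through which cyclin-dependent kinase starts replication, averaged 30.3 ± 13.3 FPKM (SD, n = 3 libraries) in the pulse and 12.4 ± 0.413 (n = 4) in the trough (1.13 ± 0.22; adjusted p = 0.00352). SLD3, the other such substrate, averaged 23.6 ± 2.90 and 17.2 ± 1.70 FPKM and was at 13.2 ± 1.15 late (n = 4). DPB11, the scaffold that binds both, averaged 43.1 ± 5.43, 32.2 ± 5.05 and 30.0 ± 2.01 FPKM.

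The genes of the Dbf4-dependent kinase were under the minimum difference. CDC7, the catalytic subunit, stood at 30.3, 25.1 and 23.1 FPKM in the pulse, 23.1, 22.9, 19.4 and 20.7 in the trough and 23.1, 21.9, 19.2 and 22.2 late, a difference of 0.27 ± 0.11 between the first pair (limma, adjusted p = 0.0714). DBF4, which activates it, averaged 41.6 ± 4.97, 30.3 ± 3.80 and 26.0 ± 1.14 FPKM. The genes of the small, histone-fold subunits of polymerase epsilon were not called. DPB3 stood at 66.5, 64.3 and 56.8 FPKM in the pulse, 46.4, 50.2, 54.3 and 60.3 in the trough and 75.7, 66.2, 86.1 and 68.8 late. Its late libraries were thus above those of the trough (22.5% of loci), by 0.48 ± 0.10 (limma, adjusted p = 0.00442, under the minimum). DPB4 stood at 66.6, 71.5 and 71.5 FPKM, then 86.6, 82.9, 82.2 and 82.4, and late at 82.1, 73.8, 85.7 and 70.9. DPB4 was the one gene of the 33 with a lower mean in the pulse than in the trough (-0.25 ± 0.08, adjusted p = 0.0246, under the minimum).

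**Figure D4:**
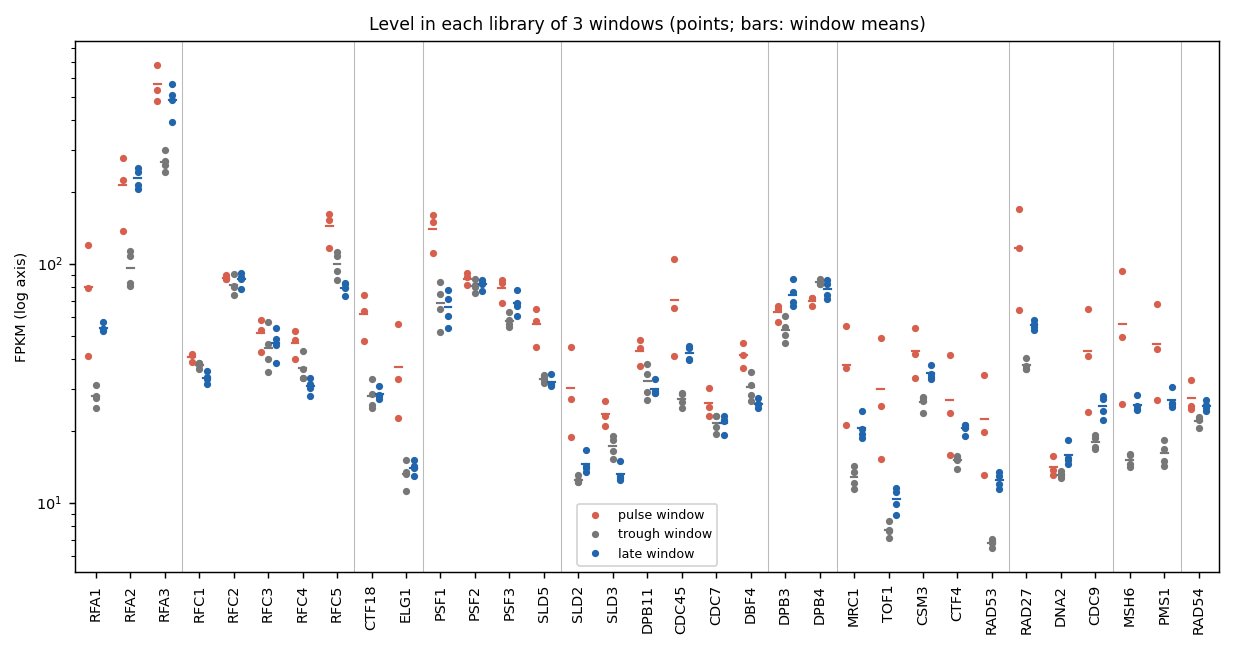
FPKM (log axis) of each gene in the single libraries of the pulse (3), trough (4) and late (4) windows, with window means as bars and lines between role groups. Pulse points lie above all trough points in 25 genes (19.4% of loci), and late points above all trough points in 17 (22.5% of loci).

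Of the 5 genes of fork protection and checkpoint signalling, TOF1, MRC1 and RAD53 were called. TOF1 stood at 48.7, 25.4 and 15.2 FPKM in the pulse, 7.72, 7.61, 7.13 and 8.39 in the trough and 11.1, 11.5, 8.89 and 9.90 late, and had the largest pulse-to-trough difference of the 33 genes (1.67 ± 0.28, limma, adjusted p = 0.00221). CSM3, which encodes its binding partner, stood at 53.8, 42.0 and 33.1 FPKM, then 27.3, 23.7, 26.7 and 27.7, and late at 34.4, 33.0, 37.7 and 33.7 (0.66 ± 0.13, adjusted p = 0.00461, under the minimum). MRC1, the mediator that passes the stall signal to Rad53, averaged 37.5 ± 16.8 FPKM (SD, n = 3) in the pulse and 12.8 ± 1.30 (n = 4) in the trough (1.39 ± 0.24, adjusted p = 0.00254). In each of these 3 genes every pulse library (19.4% of loci) and every late library (22.5% of loci) lay above every trough library.

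RAD53, the checkpoint effector kinase, had the lowest level of the group in the trough. It averaged 22.3 ± 10.8 FPKM in the pulse, 6.80 ± 0.252 in the trough and 12.4 ± 0.889 late, with differences from the trough of 1.48 ± 0.23 (limma, adjusted p = 0.00164) and 0.78 ± 0.22 (adjusted p = 0.0146, under the minimum). From a low of 6.465 FPKM at 70 min it stood at 13.4 at 200 min, its highest value after 30 min. CTF4, which ties polymerase alpha to the helicase, averaged 26.9 ± 13.04, 15.0 ± 0.804 and 20.5 ± 0.996 FPKM and was under the minimum (0.70), but passed without the 40 min library (1.01).

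Of the 3 genes that finish lagging-strand fragments, RAD27 and CDC9 were called. RAD27, the flap endonuclease gene, stood at 169, 116 and 63.96 FPKM in the pulse, 36.4, 37.2, 36.2 and 40.4 in the trough and 52.7, 56.0, 57.9 and 54.3 late (1.501 ± 0.24 from trough to pulse, limma, adjusted p = 0.00169). CDC9, the DNA ligase gene, averaged 43.2 ± 20.4, 17.9 ± 1.18 and 25.3 ± 2.62 FPKM and its pulse was higher than its trough by 1.12 ± 0.25 (adjusted p = 0.00658). DNA2, a nuclease and helicase that trims long flaps, stood at 15.6, 13.7 and 12.98 FPKM, then 12.95, 13.6, 13.1 and 12.7, and late at 14.5, 18.3, 15.3 and 15.0 (0.10 ± 0.10, adjusted p = 0.453). Over the course DNA2 stayed between 12.1 and 18.3 FPKM while RAD27 ran from 16.4 to 169.

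Both mismatch repair genes were called. MSH6, whose product recognises mispaired bases, stood at 92.9, 49.4 and 25.9 FPKM in the pulse, 15.9, 14.1, 14.5 and 15.96 in the trough and 24.3, 28.1, 24.7 and 25.5 late. PMS1, whose product acts after that recognition, stood at 67.5, 44.0 and 27.0 FPKM, then 16.8, 15.0, 14.3 and 18.4, and late at 25.1, 30.6, 26.1 and 25.8. For both genes every pulse library (19.4% of loci) and every late library (22.5% of loci) lay above every trough library. The pulse exceeded the trough by 1.64 ± 0.31 for MSH6 and 1.37 ± 0.23 for PMS1 (limma, adjusted p = 0.00318 and 0.00222), and the late window exceeded it by 0.73 (adjusted p = 0.0619) and 0.71 (adjusted p = 0.0231), both under the minimum. RAD54, a motor protein of homologous recombination, stood at 32.5, 25.3 and 24.5 FPKM in the pulse, 22.4, 20.6, 22.2 and 22.7 in the trough and 24.1, 26.95, 24.98 and 25.6 late (0.30 ± 0.10, adjusted p = 0.0339, under the minimum).

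The genes also differed in how much was left at 40 min. At 40 min MSH6 had 27.8% of its 20 min level left, TOF1 31.3%, RFA1 34.5% and CDC9 37.1%. At the same time RFC5 had 71.7%, PSF1 68.8%, SLD5 69.3% and CTF18 64.2%, and RFA3, which peaked at 30 min, 90.4%. CTF18 and PSF1 thus reached called differences from the trough by a slower descent than MSH6 or TOF1. No replicate allows a test of these percentages.

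**Figure D5:**
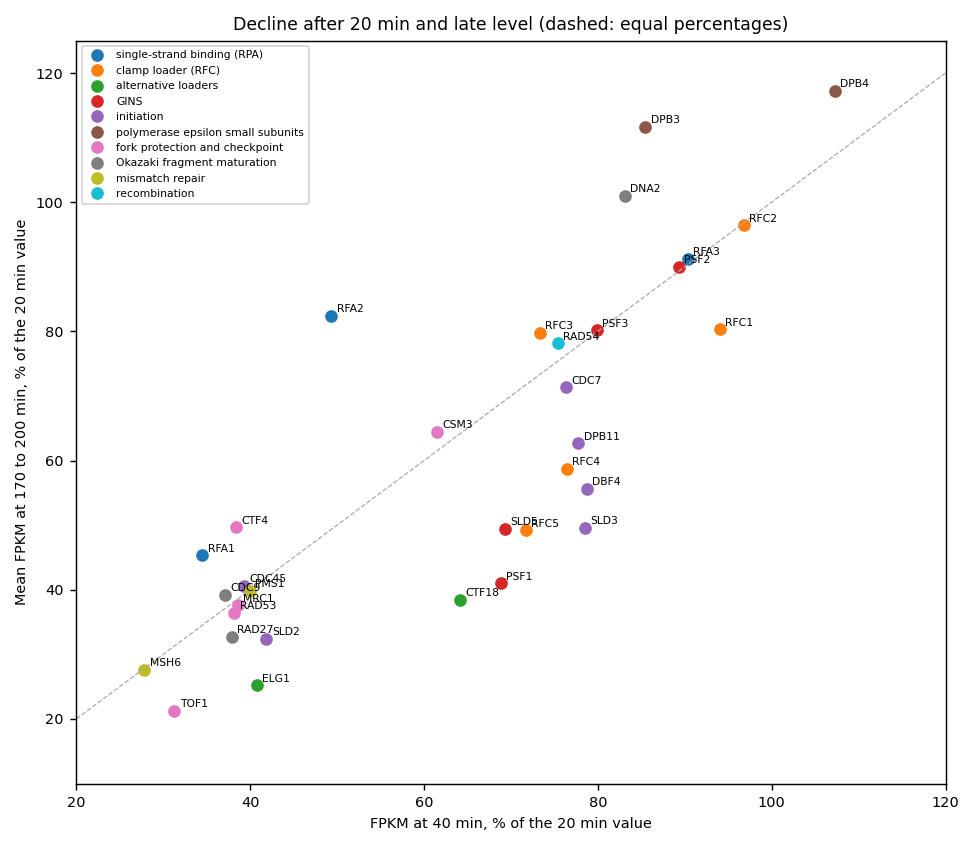
FPKM at 40 min (x axis) and mean FPKM at 170 to 200 min (y axis), each as a percentage of the gene's 20 min value, with 1 point per gene coloured by role. MSH6 and TOF1 lie at the lower left, RFA2 lies far above the line of equal percentages (49.4% and 82.4%), and PSF1 and CTF18 lie below it.

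The late window was compared with the trough and with the pulse. Late exceeded trough in 1 of 33 genes (RFA2, 4.02% of loci) and was lower in 0 (0.855% of loci). At an unadjusted p under 0.05 in limma 14 genes were higher and 4 lower, against 27.2% and 22.8% of loci. Every late library lay above every trough library in 17 of 33, against 22.5% of loci. Late was lower than pulse in 4 of 33 (CTF18, ELG1, PSF1 and TOF1, against 4.11% of loci) and higher in 0 (10.0% of loci). At an unadjusted p under 0.05 in limma late was higher in 0 and lower in 20, against 35.3% and 29.0% of loci. TOF1 differed by -1.29 ± 0.28 and PSF1 by -1.08 ± 0.19 in that comparison (adjusted p = 0.00256 and 0.000594), and PSF1 did not reach the minimum without 190 min (-0.99). These 4 calls ended without the 20 min library, and 10 genes were called without the 40 min library, with MSH6 at -1.37 and RAD27 at -1.33. Scaling all libraries to one sum of FPKM moved the median of all loci from 0.02 to 0.22 for late against trough and from 0.06 to 0.29 for late against pulse. On that scale RFA1 (1.13) and RFA3 (1.05) were also called against the trough, to be read against that shift, and ELG1 and TOF1 were the genes called lower than in the pulse. The 10 most abundant loci held 16.7% to 18.01% of the summed FPKM in the pulse, 12.4% to 19.2% in the trough, with a drop between 70 and 80 min, and 10.5% to 13.7% in the late window, and the part of this in the late differences was not tested.

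Other genes of the same pathways, 77 in 10 lists, were looked at in the same windows. Of them 0 were called lower in the pulse than in the trough (10 at an unadjusted p under 0.05 in limma, against 25.4% of loci). The median difference was 0.17, and 6 were called higher in the pulse (2.02% of loci). Among them were ECO1 of cohesion establishment (18.9 and 7.77 FPKM, 1.05), RAD5 of post-replication repair (26.0 and 9.34, 1.21), RTT107 of the Rtt101 pathway (57.6 and 21.5, 1.32) and DDR48 (39.9 and 15.4, 1.23), of the 8 damage-induced genes.

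In 4 lists no gene was called between pulse and trough. At an unadjusted p under 0.05 in limma, 5 of 10 other checkpoint genes were higher in the pulse and 1 lower (median difference 0.30), and 3 of 8 helicase and topoisomerase genes higher and 1 lower (0.16). The same counts were 2 and 2 of 9 genes of nucleotide excision repair (-0.09) and 3 and 2 of 7 of base excision repair (0.12). At that unadjusted p, 21.99% of all loci were higher in the pulse than in the trough and 25.4% lower. Late against trough, none of the 77 was called in either direction, where 4.02% of loci were called higher and 0.855% lower. At an unadjusted p under 0.05 in limma 32 were higher and 5 lower, against 27.2% and 22.8% of loci. Against the pulse, the late window was higher for MAG1, a DNA glycosylase gene (20.6 and 50.4 FPKM, 1.26, limma, adjusted p = 0.000101), and for DDR2 (77.3 and 258 FPKM, 1.63, adjusted p = 0.000890). It was lower for none of the 77 (22 at an unadjusted p under 0.05 in limma, against 29.0% of loci). The 2 of 77 called higher and the 0 called lower stand beside 10.0% of loci called higher and 4.11% called lower.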

How the data were processed

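The deposited table holds values of 1 culture in 21 libraries. The submitters' processing notes name STAR, Cufflinks and Cuffnorm, without versions, and build R64. That the deposited unit is FPKM with 1 added by the authors was inferred from these tools and the values (lowest value 1, not whole, library sums that differ). The 1 was subtracted. The library kit was a stranded one for mRNA, per the labels' protocols, and whether counting used the strand is not stated; none of the 33 genes overlapped another annotated protein-coding gene. No 2 of the libraries (210 pairs) were identical. A table of 50 wild-type columns from another series was not used here.

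Tests used log2(FPKM + 1) and limma (3.58.1, under R 4.3.3) with a mean-variance trend and Benjamini-Hochberg adjustment over all loci with a mean of at least 1 FPKM in the libraries of the fit. The added 1 understates changes of low genes. The course over 21 libraries was modelled by a natural spline (6 degrees of freedom), and the windows over 11 libraries (3 pulse, 4 trough, 4 late). Scripts were tested on simulated data. Promoter windows were read from the RefSeq R64 genome, whose build is the one the labels name, and in all 33 the coding sequence began with ATG. The 33 genes, the lists, the windows and the tests were chosen with earlier results of these data known. Full window values are given for the genes of each role with the largest and smallest pulse-to-trough difference, the 3 largest late-to-trough differences and every call of late against pulse. Up to 2 called genes are named per list of other genes, and some of those results are not reported here; DDC2 is listed as LCD1 in the table. Alternatives were other pseudocounts, minimums, scalings, windows and left-out libraries.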

Additional observations from a re-analysis of the deposited data

Results flagged for a closer look

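In 3 of 66 windows of 4 libraries 1 library stood apart from the other 3 by Dixon's criterion at 95%, which chance alone gives in about 1 of 20. DPB4 was at 86.6 FPKM at 60 min, with the next trough library at 82.9. SLD5 was at 34.7 FPKM at 180 min, with the next late library at 31.4, and DPB11 at 33.0 FPKM at 180 min, with the next at 29.2.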

How the results depend on the processing

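No paired analysis was possible because each time point is 1 library and the labels give no replicate numbers. A pseudocount of 5 gave 106 loci lower in the pulse than in the trough, 140 higher late than in the trough and 367 higher late than in the pulse. It ended the calls of PSF1 (0.98), SLD2 (0.95) and CDC9 (0.98) in pulse against trough, leaving 12 of the 33 genes, and of CTF18 (-0.98) in late against pulse, leaving 3. Scaling to one sum of FPKM gave, late against trough, 3 of the 33 genes and 399 loci higher and 28 loci lower, and, late against pulse, 969 loci higher and 2 of the 33 genes and 116 loci lower. A pulse of 20 to 30 min gave 192 loci higher than the trough and 10 of the 33 genes lower late than in the pulse. With no minimum difference, pulse against trough called 25 of the 33 genes and 1046 loci higher and 1 gene and 1225 loci lower, late against trough 10 genes and 1399 loci higher and 2 genes and 1174 loci lower, and late against pulse 2046 loci higher and 19 genes and 1676 loci lower. For change over time, a spline of 4 degrees of freedom called 3 of the 33 genes, leaving out 0 and 10 min called 1734 loci, and no minimum range called 5127 loci. Leaving out 1 library at a time gave 9 to 16 of the 33 genes and 93 to 192 loci higher in the pulse than in the trough, 0 to 10 genes lower late than in the pulse, and 12 to 22 genes changed over time. Beyond what the construction of these settings shows, the cause was not tested. Uncalled differences near 0 changed sign: with one sum of FPKM, PSF1 (0.15) and DPB4 (0.10) late against trough, and RFA3 (0.028), RFC2 (0.22), PSF2 (0.16) and RAD54 (0.14) late against pulse; with median ratio scaling, PSF2 (-0.00098) and CDC7 (-0.020) late against trough; with the shorter pulse, RFA2 (-0.13) late against pulse; and with a late window from 180 min, CDC7 (-0.026) late against trough. Leaving out 1 library gave -0.040 to 0.058 for CDC7, -0.022 to 0.11 for CTF18, -0.18 to 0.048 for PSF1 and -0.0067 to 0.057 for PSF2 late against trough, and -0.17 to 0.028 for RAD54, -0.13 to 0.37 for RFA2 and -0.053 to 0.022 for RFC2 late against pulse. Read counts are unknown, so counting error could not be separated from other spread.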
